A study of Homo sapiens with 12 samples.

Results

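The difference of the resistance response between BxPC-3 and CFPAC-1 was measured as the change from the parental to the gemcitabine (GEM)-resistant cells of BxPC-3 minus the same change in CFPAC-1. It was fitted for the 12184 genes that averaged 1 FPKM or more (fragments normalized to gene length and to the mapped fragments of the library) over 12 libraries, of 58302 genes in the table. The genes described are those that moved in opposite directions in the 2 lines, outside a segment of chromosome 11 from PGAP2 to TPP1 (3797724 to 6619461 on GRCh38) that held 24 tested genes. These opposite genes numbered 1225 of the 12160 tested genes outside the segment.

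BxPC-3 and CFPAC-1 are established cell lines of human pancreatic cancer, from which BxPC-3-GR and its counterpart CFPAC-1-GR were selected by growth in rising GEM concentrations. Each of the 4 groups had 3 libraries of total RNA. The labels gave the same RPMI medium for all cells, where the methods of the study name IMDM for CFPAC-1. They called BxPC-3-GR mesenchymal in morphology and the other 3 groups epithelial, and named no gene edit. Each resistant line is a single selected population, and the labels did not say whether the 3 libraries of a group came from separate cultures, so p-values measure only the spread between libraries, which may be technical.

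GEM is a deoxycytidine analog. Cells take it up through nucleoside transporters, phosphorylate it with deoxycytidine kinase and inactivate it with cytidine deaminase, and its nucleotides block ribonucleotide reductase and stall DNA synthesis. Carcinoma cells that survive long exposure can differ in differentiation state, in stress and inflammatory signaling and in metabolism as well as in drug handling, and the same end point can be reached from different starting states.

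The cells carried the markers of epithelial carcinoma. KRT8, KRT18, KRT19, EPCAM and CDH1 had at least 49.4, 66.4, 446, 53.7 and 18.1 FPKM in each of the 12 libraries. The leukocyte marker PTPRC was listed at 0 in all 12, PECAM1 and CDH5 of endothelium stayed at or below 0.267 and 0.817 FPKM, and the fibroblast markers DCN and LUM were listed at 0 in 10 and 9 libraries. Over all 27 markers of other cell types, the summed level was 5.58 to 6.94 FPKM in BxPC-3, 3.76 to 3.98 in its resistant line, 36.2 to 43.4 in CFPAC-1 and 19.0 to 21.7 in its resistant line, and 3 of the 27 passed the filter. Steps between low values implied 12800000 to 25000000 fragments per library, with 49.9% to 71.1% of low values within 0.05 of a whole fragment.

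The 2 responses differed for many genes. The difference was called, where the absolute log2 value exceeded 1 and the p adjusted by Benjamini-Hochberg was below 0.05, for 2316 genes (19.0% of those tested). It was positive, that is higher in the BxPC-3 lines, for 1151 genes (9.45%) and negative for 1165 (9.56%). Of the called genes outside the segment, 591 (4.86% of tested genes) rose in BxPC-3-GR but fell in CFPAC-1-GR, and 634 (5.21%) fell in BxPC-3-GR but rose in CFPAC-1-GR, with an adjusted p below 0.05 in each line. A further 297 genes changed in BxPC-3-GR alone, 599 in CFPAC-1-GR alone, 154 in the same direction by different amounts, and 22 passed the test in neither line alone. Both responses were also above 1 in size for 25 of the 591 and 24 of the 634. The first set had median responses of 0.70 and -0.74 on the log2(FPKM + 1) scale, and the second -0.61 and 0.76.

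**Figure D1:**
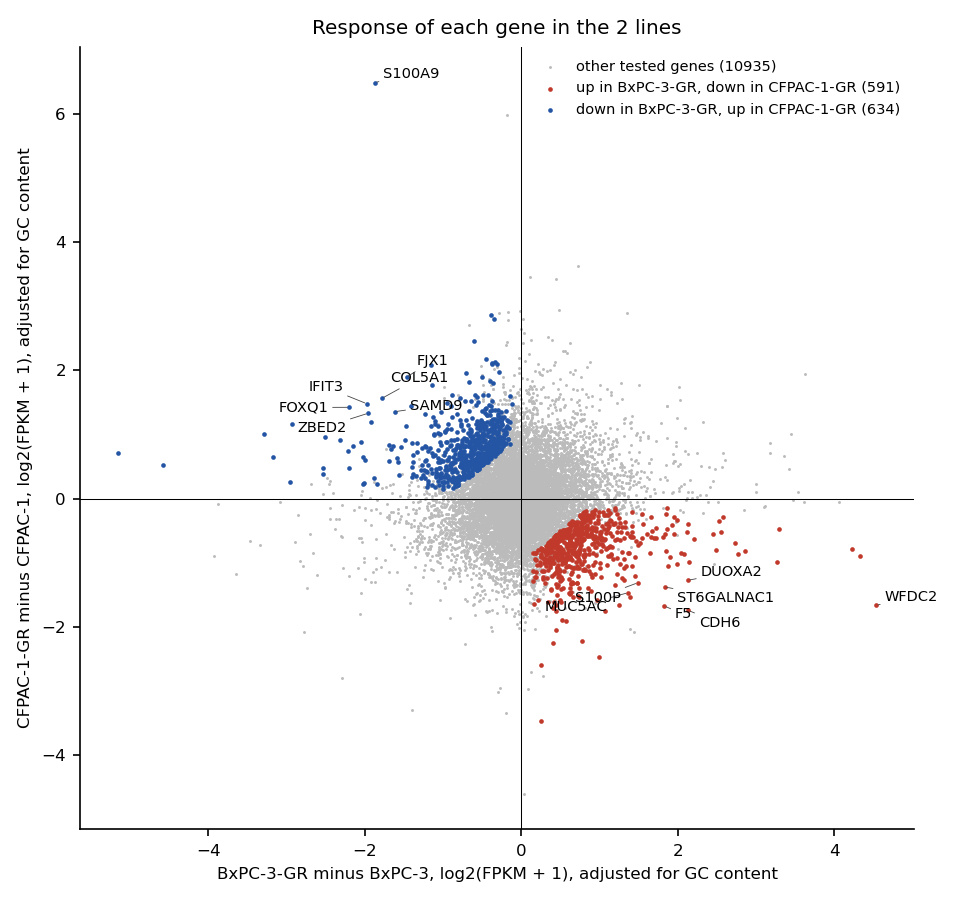
Log2 response of each tested gene outside the chromosome 11 segment in BxPC-3-GR (x axis) and in CFPAC-1-GR (y axis), on the log2(FPKM + 1) scale after adjustment for GC content. Red points are the 591 that rose in BxPC-3-GR but fell in CFPAC-1-GR, blue points the 634 that moved the other way, and 7 leading genes of each direction are named, with S100A9 alone above 6 on the y axis.

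Every response is given relative to genes of like GC content (the share of G and C bases of a transcript). The reason is that the unadjusted response of the CFPAC-1 lines followed GC content. As a contrast of resistant with parental libraries, this response does not show which of them carried the trend. Across the 12184 genes, which are not independent replicates, Spearman's rho between GC content and the unadjusted response was -0.777 in the CFPAC-1 lines and 0.0593 in the BxPC-3 lines. After a spline on GC content was subtracted from each library, rho was -0.0153 and -0.000305. The median unadjusted response in CFPAC-1-GR was 1.21 in the tenth of genes with the lowest GC content and -0.967 in the tenth with the highest. Gene length had a weaker relation with the adjusted responses (rho 0.238 in the CFPAC-1 and 0.0783 in the BxPC-3 lines). The source of the trend was not tested.

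**Figure D2:**
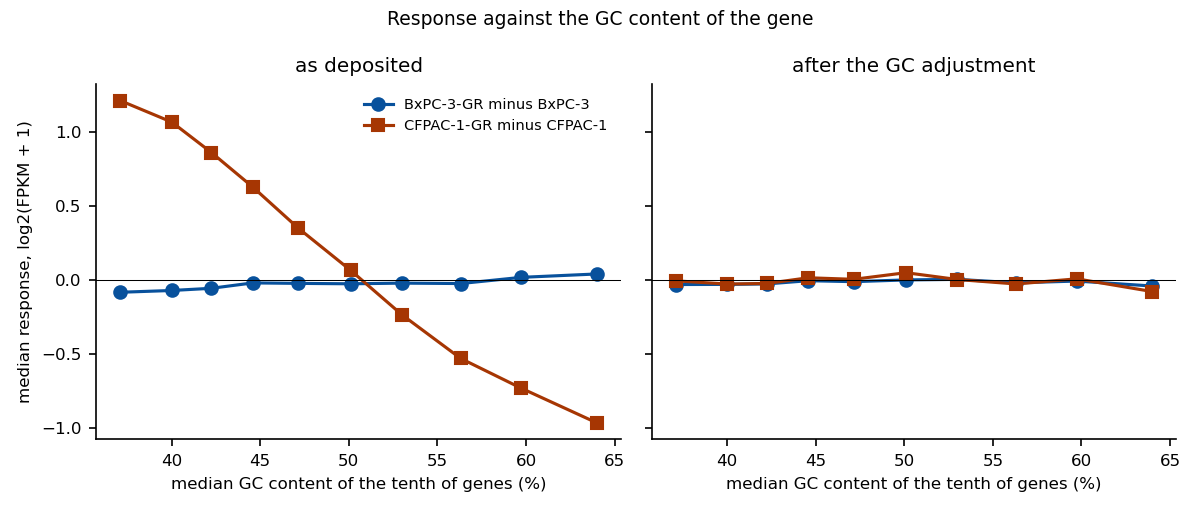
Median response of the BxPC-3 lines (circles) and of the CFPAC-1 lines (squares) in 10 equal groups of the tested genes by GC content, on the log2(FPKM + 1) scale, as deposited (left) and after the adjustment (right). The CFPAC-1 curve runs from 1.21 to -0.967 on the left and lies near 0 on the right, while the BxPC-3 curve lies near 0 in both.

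The adjustment matters for how an opposite call is read, so each set was split by its deposited FPKM. Of the 591 genes, 388 also had opposite FPKM, with every BxPC-3-GR library above every BxPC-3 library and every CFPAC-1-GR library below every CFPAC-1 library. Over all genes tested outside the segment this pattern held for 1409 (11.6%). Another 98 of the 591 had higher FPKM in both resistant lines, so that their fall in CFPAC-1-GR was a fall relative to genes of like GC content only, and in 105 the libraries of a line overlapped. Of the 634 genes, 514 had opposite FPKM in the other sense, against 2158 (17.7%) of all genes tested outside the segment, 38 had lower FPKM in both resistant lines, and 82 overlapped. An average below 1 FPKM in the libraries of a line was found for 88 of the 591 and 73 of the 634, and there the response of that line rests largely on the adjustment. Opposite FPKM together with an average of 1 FPKM or more in each line was left for 358 and 476 genes, which are called opposite in FPKM below. Deposited FPKM keep the GC trend of the CFPAC-1 lines, so this split also depends on the GC content of a gene.

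Among genes up in BxPC-3-GR that fell in CFPAC-1-GR, the leading genes were those with the largest smaller response of the 2. CDH6, a classical cadherin (chromosome 5, 31193750 to 31329146, plus strand), had 3.39, 3.57 and 3.70 FPKM in the BxPC-3 libraries and 18.5, 18.5 and 18.3 in BxPC-3-GR, against 0.962, 1.25 and 1.26 in CFPAC-1 and 0.377, 0.327 and 0.402 in CFPAC-1-GR. Its responses were 2.14 and -1.74, a difference of 3.88 (standard error 0.0862, adjusted p = 5.0e-10), and the CFPAC-1 lines held little of it before and after. The unadjusted response of CDH6 in CFPAC-1-GR was -0.65, so most of the -1.74 came with the adjustment. CDH6 averaged below 1 FPKM in the CFPAC-1 lines and is thus not among the genes called opposite in FPKM. WFDC2, a secreted protein with whey acidic protein domains known as HE4 (chromosome 20, 45469706 to 45481532, plus strand), showed the largest difference of these genes at 6.20 (standard error 0.134, adjusted p = 5.0e-10). It had 1.97, 1.72 and 1.54 FPKM in BxPC-3, 55.9, 60.001 and 68.8 in BxPC-3-GR, against 52.1, 54.1 and 53.04 in CFPAC-1 and 13.5, 17.4 and 16.1 in CFPAC-1-GR. The level of BxPC-3-GR thus came to lie above that of CFPAC-1, and CFPAC-1-GR fell below both.

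F5, coagulation factor V (chromosome 1, 169514166 to 169586588, minus strand), had 0.777, 0.965 and 1.13 FPKM in BxPC-3, 5.76, 5.504 and 6.45 in BxPC-3-GR, against 3.44, 5.46 and 5.13 in CFPAC-1 and 1.71, 1.33 and 1.499 in CFPAC-1-GR, and its responses were 1.83 and -1.67. ST6GALNAC1, a sialyltransferase of mucin-type glycans, exchanged its levels between the lines in the same way, at 0.551 ± 0.0598 and 4.42 ± 0.374 FPKM (SD, n = 3) in the BxPC-3 lines and 4.86 ± 0.299 and 0.993 ± 0.169 in the CFPAC-1 lines. For both genes BxPC-3 resembled CFPAC-1-GR in level more than its own resistant line. S100P, a calcium-binding protein of pancreatic carcinoma (chromosome 4, 6693069 to 6697170, plus strand), had 7.56, 6.76 and 6.91 FPKM in BxPC-3 and 19.1, 20.8 and 24.1 in BxPC-3-GR, against 4.01, 3.44 and 4.16 in CFPAC-1 and 0.633, 0.771 and 0.727 in CFPAC-1-GR (difference 2.80, standard error 0.121, adjusted p = 3.0e-08). DUOXA2, which matures the hydrogen peroxide-forming oxidase DUOX2, had responses of 2.13 and -1.27, with 1.46 ± 0.203, 10.1 ± 1.65, 14.3 ± 0.876 and 2.76 ± 0.273 FPKM in the groups in the same order. MUC5AC, a gel-forming gastric mucin, had responses of 1.37 and -1.46, but its level was at most 1.86 FPKM in the BxPC-3 lines and ranged from 3.25 to 6.53 in CFPAC-1, where replicate 1 was the lowest.

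The remaining leading genes of this direction had responses between 1.01 and 1.99 in BxPC-3-GR and between -1.75 and -1.01 in CFPAC-1-GR. They were TM4SF1, a tetraspanin-like surface protein, TMPRSS4, a membrane serine protease, ENO2, the neuronal isoform of the glycolytic enzyme enolase, SDHAF4, an assembly factor of succinate dehydrogenase, LURAP1L, EPHX1, the microsomal epoxide hydrolase, and ISYNA1, which forms inositol phosphate from glucose phosphate. ISYNA1 had adjusted responses of similar size, 1.01 and -1.08, where the unadjusted ones were 1.08 and -1.97. Its levels were 2.61 ± 0.113 and 6.63 ± 0.385 FPKM in the BxPC-3 lines and 22.99 ± 1.44 and 5.14 ± 0.838 in the CFPAC-1 lines (SD, n = 3 each). TM4SF1 changed little in the CFPAC-1 lines as deposited, from 25.7 ± 1.14 to 22.5 ± 1.79 FPKM, and most of its response of -1.34 came with the adjustment. SDHAF4 had an unadjusted response of -0.48 in CFPAC-1-GR and an adjusted one of -1.22. ENO2 varied between libraries, from 1.23 to 3.26 FPKM in BxPC-3-GR and from 9.19 to 16.7 in CFPAC-1 (difference 2.13, standard error 0.370, adjusted p = 0.00049).

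In the other direction, S100A9, a subunit of calprotectin made by stressed and squamous epithelium and by myeloid cells (chromosome 1, 153357854 to 153361027, plus strand), led by a wide margin. It had 148, 162 and 154 FPKM in BxPC-3 and 42.4, 38.8 and 42.2 in BxPC-3-GR, against 3.84, 2.61 and 2.97 in CFPAC-1 and 258, 298 and 253 in CFPAC-1-GR. The difference was -8.36 (standard error 0.137, adjusted p = 7.1e-11), and the order of the lines turned, with CFPAC-1-GR above BxPC-3 in every library. FOXQ1, a forkhead transcription factor (chromosome 6, 1312440 to 1314748, plus strand), had 21.1, 23.9 and 24.7 FPKM in BxPC-3, 4.54, 4.63 and 4.26 in BxPC-3-GR, against 43.0, 46.4 and 47.3 in CFPAC-1 and 67.1, 70.6 and 67.5 in CFPAC-1-GR. Its responses were -2.20 and 1.42 (difference -3.62, standard error 0.101), and no group overlapped another. The unadjusted response of FOXQ1 in CFPAC-1-GR was 0.58, so most of the 1.42 came with the adjustment.

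THBD, thrombomodulin, a receptor of thrombin that turns it toward anticoagulation (chromosome 20, 23045633 to 23049741, minus strand), fell most in BxPC-3-GR among these genes, from 55.8, 59.7 and 56.4 to 6.85, 6.47 and 6.32 FPKM. In CFPAC-1 it had 4.92, 5.11 and 5.14 and in CFPAC-1-GR 8.41, 10.1 and 9.77 FPKM, so that after selection the resistant lines differed far less than the parental lines (responses -2.93 and 1.16). The coagulation factor F5 and the anticoagulant THBD moved in opposite senses in both lines. COL5A1, a chain of the fibrillar collagen type V (chromosome 9, 134641774 to 134844843, plus strand), had 2.89, 2.32 and 2.29 FPKM in BxPC-3, 0.0413, 0.0211 and 0.0524 in BxPC-3-GR, against 0.947, 1.27 and 1.31 in CFPAC-1 and 2.25, 2.93 and 3.23 in CFPAC-1-GR. It was nearly absent from the BxPC-3-GR libraries, the group that the labels call mesenchymal. ULBP3, a ligand of the natural killer receptor NKG2D, had 11.3 ± 0.589 and 4.19 ± 0.108 FPKM in the BxPC-3 lines and 3.62 ± 0.372 and 7.60 ± 0.767 in the CFPAC-1 lines (SD, n = 3 each).

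FJX1, a secreted homolog of Drosophila four-jointed, ZBED2, a zinc finger repressor, and INHBA, the inhibin beta A chain of activin A, followed the same course. INHBA had 3.84 ± 0.364 and 1.24 ± 0.222 FPKM in the BxPC-3 lines and 0.488 ± 0.0363 and 6.20 ± 0.996 in the CFPAC-1 lines. CTR9, a subunit of the PAF1 elongation complex, ZNF146, RASSF10 and JPT2 completed the leading genes, and JPT2 was uneven between libraries, with 3.87, 9.49 and 4.05 FPKM in BxPC-3-GR and 18.8, 9.60 and 8.34 in CFPAC-1-GR (difference -2.61, standard error 0.466, adjusted p = 0.0006). IFIT3 and SAMD9, the remaining ones, belong to the interferon response described next. The choice of these 28 leading genes required that FPKM of resistant and parental libraries be separate in each line. COL5A1, FJX1 and RASSF10 had unadjusted responses of 0.80, 1.003 and 0.61 in CFPAC-1-GR, against adjusted ones of 1.57, 1.90 and 1.21.

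**Figure D3:**
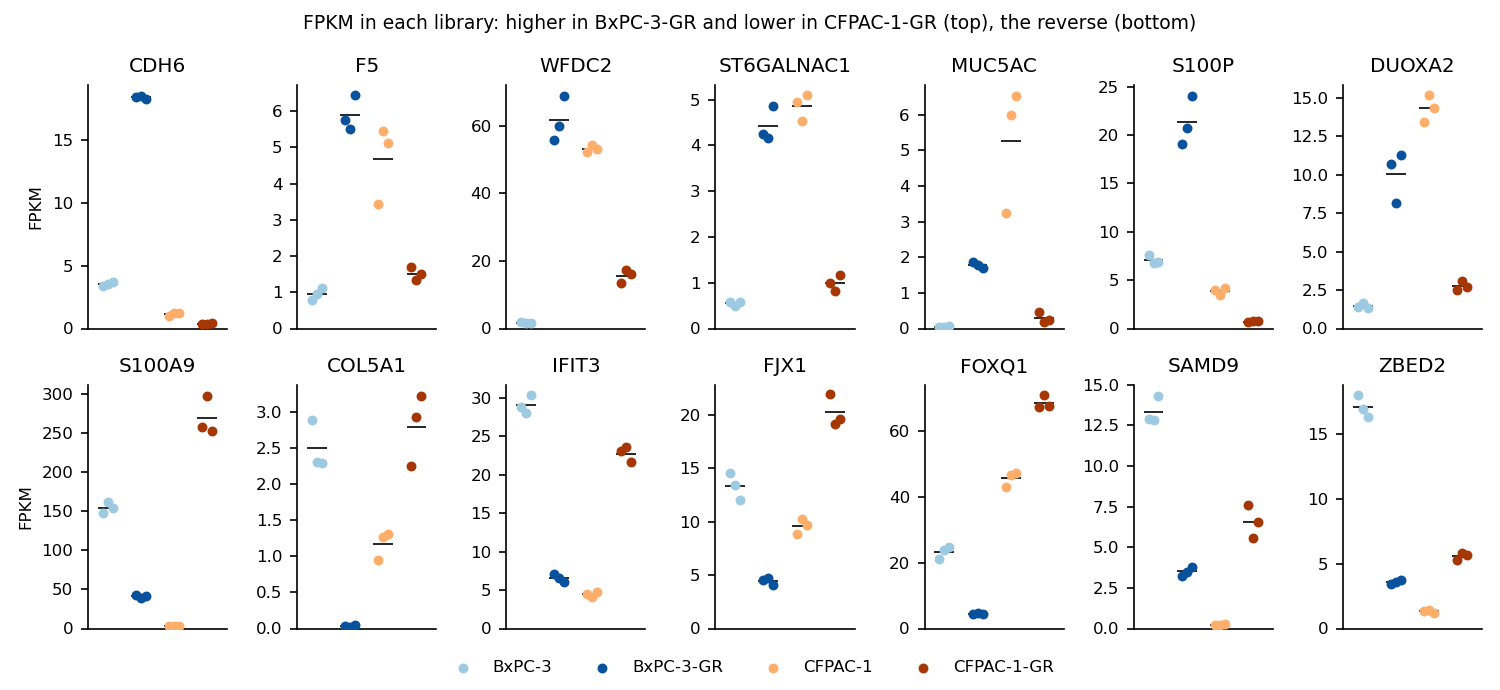
FPKM in each library (points, 3 per group) with the group mean (bar) for 7 leading genes of each direction, with the BxPC-3 lines left of the CFPAC-1 lines and parental left of resistant libraries. Genes of the top row were higher in BxPC-3-GR than in BxPC-3 and lower in CFPAC-1-GR than in CFPAC-1, genes of the bottom row the reverse, and S100A9 in CFPAC-1-GR reached 298 FPKM.

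The order of the lines before and after selection was compared for the opposite genes. Of the 591 genes up in BxPC-3-GR, 447 had higher FPKM in every CFPAC-1 than in every BxPC-3 library before selection, and in 182 of these every BxPC-3-GR library lay above every CFPAC-1-GR library afterwards. Among the other tested genes 4232 started higher in CFPAC-1 and 704 of these turned. Of the 634 genes of the other direction, 559 started higher in BxPC-3, and in 306 of these the order turned, while among the other tested genes 5041 started higher in BxPC-3 and 1286 of these turned. These counts are a description, since the parental libraries also enter each response.

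Type I interferon-stimulated genes, which cells induce in response to infection or interferon, held more opposite members than any other list, nearly all of the second direction. Of 45 tested members of a list of 51, 13 fell in BxPC-3-GR but rose in CFPAC-1-GR and 1, GBP2, moved the other way. The 13 are 28.9% of the list, against 5.21% of all genes, and the median difference of the list was -0.60 against -0.00578 for all genes. Of these 13, 12 were opposite in FPKM, and GBP2 had nearly the same mean in CFPAC-1 and CFPAC-1-GR (13.3 and 13.7 FPKM). The sensors of cytosolic RNA DDX58, known as RIG-I, and IFIH1, known as MDA5, had responses of -0.19 and -0.47 in the BxPC-3 lines and 1.04 and 0.79 in the CFPAC-1 lines.

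Effectors of the response were among the leading genes. IFIT3, which binds the RNA cap sensor IFIT1 (chromosome 10, 89327894 to 89340971, plus strand), had 28.9, 28.1 and 30.5 FPKM in BxPC-3 and 7.15, 6.54 and 6.09 in BxPC-3-GR, against 4.45, 4.14 and 4.70 in CFPAC-1 and 23.1, 23.6 and 21.6 in CFPAC-1-GR (difference -3.46, standard error 0.0966, adjusted p = 1.8e-09). IFIT1 itself had 4.17, 4.79 and 4.91, then 0.949, 1.004 and 0.968, against 0.977, 0.891 and 0.913 and then 5.55, 6.25 and 5.37 FPKM. SAMD9, an antiviral factor (chromosome 7, 93099513 to 93118023, minus strand), had 12.9, 12.8 and 14.3 FPKM in BxPC-3, 3.26, 3.47 and 3.81 in BxPC-3-GR, against 0.234, 0.232 and 0.246 in CFPAC-1 and 7.59, 5.56 and 6.55 in CFPAC-1-GR. OAS2, an oligoadenylate synthetase that activates RNase L, had responses of -1.64 and 0.82, OAS3 -0.76 and 0.53, IFIT2 -1.07 and 0.57, IFIT5 -0.42 and 1.07, HERC6 -1.57 and 0.58 and IFI27 -0.71 and 0.50. IRF7 was listed at 0.0132 and 0.00661 FPKM in the BxPC-3 lines, so its call there rests on the adjustment. Without the GC adjustment 14 members were opposite in this sense and with the adjustment in 3 bands of mean level 11.

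The promoters of these genes show the letters through which interferon signaling is known to act. In windows of 250 bases before to 50 after the start of each gene (RefSeq, GRCh38.p14), the core of the interferon-stimulated response element, GAAA, any 2 bases and GAAA on either strand, was found in 7 of the 9 opposite interferon genes that had a window and in 25 of 35 tested members of the list (71.4%), against 2.75% of the 8514 tested genes with a window. Among all opposite genes with a window it was found in 5.28% of the 436 of the second and 3.13% of the 352 of the first direction. The 150 bases before the start are printed for the interferon genes among those named that hold the element there, with the matches in capitals, and for S100P and S100A9, the S100 genes among the leading genes of each direction, with the TATA box letters TATAAA in capitals. IFIT3 lies at chr10:89327847-89327996 (+), IFIT1 at chr10:89392473-89392622 (+), SAMD9 at chr7:93117980-93118129 (-), S100P at chr4:6693728-6693877 (+) and S100A9 at chr1:153357704-153357853 (+), each read on the strand of its gene.
IFIT3: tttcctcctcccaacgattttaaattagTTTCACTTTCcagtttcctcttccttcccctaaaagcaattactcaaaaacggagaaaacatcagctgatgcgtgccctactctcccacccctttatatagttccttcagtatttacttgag
IFIT1: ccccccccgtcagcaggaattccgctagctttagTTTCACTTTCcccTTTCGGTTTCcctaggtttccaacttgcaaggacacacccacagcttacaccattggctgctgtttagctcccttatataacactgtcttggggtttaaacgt
SAMD9: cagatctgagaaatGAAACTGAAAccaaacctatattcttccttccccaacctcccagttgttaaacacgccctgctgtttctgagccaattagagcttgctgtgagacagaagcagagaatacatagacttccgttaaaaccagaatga
S100P: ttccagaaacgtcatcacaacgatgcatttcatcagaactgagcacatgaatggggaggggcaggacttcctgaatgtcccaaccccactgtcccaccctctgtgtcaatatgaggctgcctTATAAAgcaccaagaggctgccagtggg
S100A9: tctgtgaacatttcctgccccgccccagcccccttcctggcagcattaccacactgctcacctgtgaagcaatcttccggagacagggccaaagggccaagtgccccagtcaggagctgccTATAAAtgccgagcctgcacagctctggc
TATAAA was found in 9.94% of windows of genes up in BxPC-3-GR and 7.11% of the others, against 5.43% of all, and the AP-1 letters TGANTCA in 5.68% and 5.05% against 4.45%. GC box letters, GGGCGG, were found in 69.0% and 68.3% against 71.9%. A match is a run of letters and not evidence of binding.

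**Figure D4:**
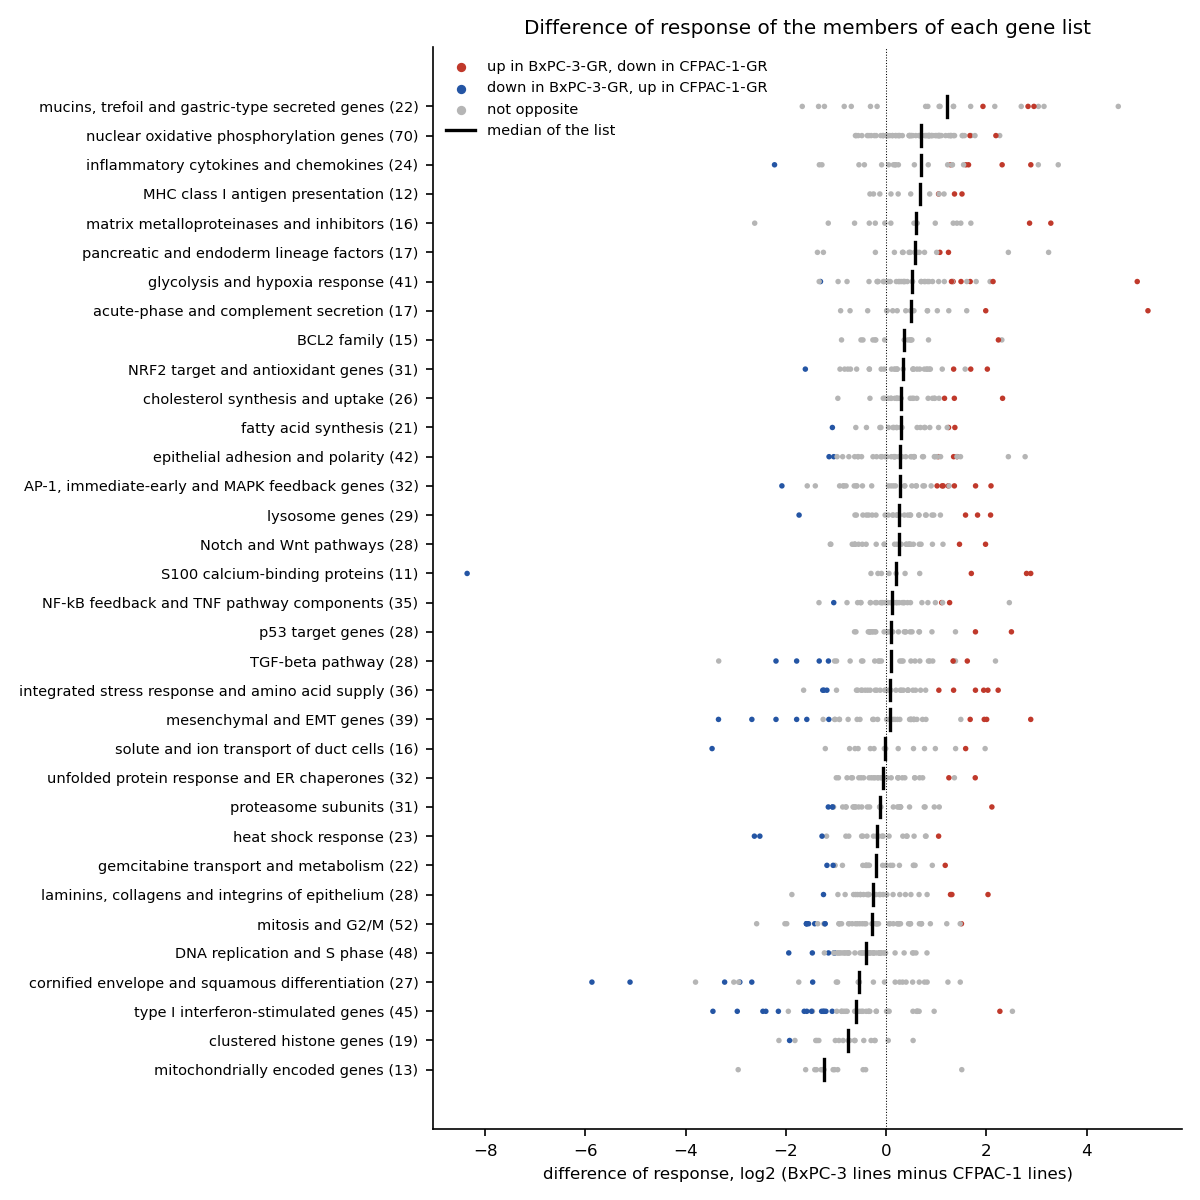
Difference of response (log2, BxPC-3 lines minus CFPAC-1 lines) of every tested member of the gene lists with at least 10 tested members, ordered by the median of the list (black bar), with the number of tested members in parentheses. Red and blue points are members called opposite in each direction. Interferon-stimulated genes hold the most blue points, 13, and S100A9 lies farthest left at -8.36.

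Squamous differentiation is the program of stratified epithelium. Of 27 tested list members, 6 (22.2%, against 5.21% of all genes) fell in BxPC-3-GR but rose in CFPAC-1-GR, and none moved the other way. The median difference was -0.54, which took the other sign with median-of-ratios scaling and no GC adjustment (0.012). The small proline-rich proteins and KRT6A, which build and line the cornified envelope, made up the other 5 calls. SPRR1B had 344, 336 and 310.4 FPKM in BxPC-3 and 9.23, 6.80 and 8.51 in BxPC-3-GR, while no CFPAC-1 or CFPAC-1-GR library was above 0.726. SPRR2A fell from 30.2 ± 3.35 to 0.292 ± 0.309 FPKM (SD, n = 3 each) and KRT6A from 452 ± 38.1 to 109 ± 4.39, and SPRR1A was listed at 0 in 5 of the 6 CFPAC-1 libraries. KRT6A had means of 2.68 and 3.12 in the CFPAC-1 lines, and for these 5 genes the call in CFPAC-1-GR was made at levels near 0 or rested on the adjustment. DSP, the desmosomal plaque protein desmoplakin, was the member opposite in FPKM, with means of 94.8 and 78.0 in the BxPC-3 lines and 7.07 and 21.3 in the CFPAC-1 lines. Its desmosomal partner DSG2 on the list of epithelial adhesion had means of 162, 131, 23.3 and 82.5 FPKM.

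The S100 family was split, with 27.3% opposite in the first and 9.09% in the second direction, against 4.86% and 5.21% of all genes. S100P, S100A4 and S100A6 rose in BxPC-3-GR but fell in CFPAC-1-GR and S100A9 did the reverse, and each of the 4 was opposite in FPKM, of 11 tested members. S100A4, linked to motility, had 2.04, 2.29 and 2.72 FPKM in BxPC-3 and 18.9, 17.4 and 17.8 in BxPC-3-GR, against 17.5, 12.97 and 13.5 in CFPAC-1 and 6.81, 9.35 and 8.31 in CFPAC-1-GR. S100A6 was far more abundant in CFPAC-1 (803 ± 42.9 FPKM) than in the other groups and fell to 243 ± 18.3, while in the BxPC-3 lines it rose from 87.3 ± 8.40 to 137 ± 9.35 (SD, n = 3 each). Of 8 tested clade B serpins the granzyme B inhibitor SERPINB9 was opposite (12.5%, against 4.86% of all genes). Its deposited FPKM was higher in both resistant lines.

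Secreted products of gastric and glandular type showed a high median difference. The list of mucins, trefoil factors and gastric-type secreted genes had a median of 1.21 over 22 tested members, with 13 called higher in the BxPC-3 lines and 3 lower, against 9.45% and 9.56% of all genes. MUC5AC, AGR2 and MUC13 were opposite after adjustment (13.6% of the list, against 4.86% of all genes). MUC5AC and MUC13 also moved oppositely as deposited but averaged below 1 FPKM in the BxPC-3 lines, and AGR2 did not. AGR2, a disulfide isomerase needed for mucin folding, had 21.8, 23.8 and 25.9 FPKM in BxPC-3 and 88.0, 103 and 117 in BxPC-3-GR, but 61.4 ± 1.09 and 65.6 ± 2.70 in the CFPAC-1 lines, where the deposited levels hardly differed. Of 17 tested acute-phase and complement genes, CP and LCN2 were opposite (11.8%, against 4.86% of all genes). LCN2, the siderophore-binding lipocalin, had 151, 152 and 167 FPKM in BxPC-3 and 398, 388 and 465 in BxPC-3-GR, against 1844, 1623 and 1915 in CFPAC-1 and 769, 850.0 and 842 in CFPAC-1-GR. CP, ceruloplasmin, rose from 0.419 ± 0.0339 to 26.8 ± 4.34 FPKM in BxPC-3-GR and had 3.98 ± 0.515 and 4.87 ± 0.286 in the CFPAC-1 lines.

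Among inflammatory cytokines, 11 of 24 tested members were called higher in the BxPC-3 lines and 3 lower, where 9.45% and 9.56% of all genes were, with a median difference of 0.70. The chemokines CXCL1, CCL20 and CCL28, the cytokine LIF and TNFSF18 rose in BxPC-3-GR and fell after adjustment in CFPAC-1-GR, of which LIF alone was opposite in FPKM. CCL20, CCL28 and TNFSF18 had higher mean FPKM in both resistant lines. Members opposite in this direction were 20.8% of the list, against 4.86% of all genes. LIF, which signals through gp130, had means of 10.6 and 16.1 FPKM in the BxPC-3 lines and 66.2 and 27.2 in the CFPAC-1 lines. CXCL1, a ligand of CXCR2, had 175, 174 and 168 FPKM in BxPC-3 and 594, 565 and 514 in BxPC-3-GR, and its libraries overlapped between CFPAC-1 and CFPAC-1-GR. IL1A went the other way, from 103 ± 7.89 to 32.3 ± 1.07 FPKM in the BxPC-3 lines and from 1.62 ± 0.431 to 7.94 ± 1.35 in the CFPAC-1 lines. Of 35 NF-kB and TNF pathway components, the coactivator BCL3 and the mitochondrial dismutase SOD2 rose in BxPC-3-GR but fell in CFPAC-1-GR. The kinase RIPK1 did the reverse. These were 5.71% and 2.86% of the list, against 4.86% and 5.21% of all genes. The deposited FPKM of SOD2 was higher in both resistant lines (1.98 ± 0.751 and 2.95 ± 0.386 in the CFPAC-1 lines).

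The list of class I antigen presentation had a median difference of the other sign than the interferon-stimulated genes. Of 12 tested members 3, HLA-B and the trimming peptidase ERAP1 among them, rose in BxPC-3-GR but fell in CFPAC-1-GR. They were 25% of the list, against 4.86% of all genes. Of the 3, only 1 was opposite in FPKM, and it was neither HLA-B nor ERAP1. No member did the reverse, and the median difference was 0.68. HLA-B stayed at or below 0.886 FPKM in the BxPC-3 lines and fell from 25.0 ± 4.74 to 8.39 ± 0.455 in the CFPAC-1 lines. HLA genes share near-identical stretches and vary between people, so their levels are uncertain. ERAP1 had higher FPKM in both resistant lines, and without the GC adjustment its difference was -0.0945.

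Of the epithelial adhesion and polarity genes, 42 tested, RAB25, OCLN and CLDN3 rose in BxPC-3-GR but fell in CFPAC-1-GR. DSG2 and MARVELD3 did the reverse, and the median difference was 0.28. The opposite shares of 7.14% and 4.76% lay near those of all genes, 4.86% and 5.21%. The deposited FPKM of OCLN was higher in both resistant lines (0.830 ± 0.119 and 1.77 ± 0.248 in the CFPAC-1 lines), and CLDN3 averaged below 1 FPKM in the BxPC-3 lines. RAB25, a small GTPase of apical recycling, had 10.3 ± 0.390 and 15.6 ± 0.777 FPKM in the BxPC-3 lines and 31.4 ± 5.28 and 15.4 ± 3.08 in the CFPAC-1 lines. The endoderm pioneer factors FOXA1 and FOXA2 were both opposite in FPKM. FOXA1 had 8.76, 9.52 and 9.64 FPKM in BxPC-3, 17.3, 16.6 and 17.2 in BxPC-3-GR, against 15.4, 18.3 and 19.0 in CFPAC-1 and 12.4, 12.2 and 12.7 in CFPAC-1-GR, and FOXA2 had 8.53 ± 0.753, 13.9 ± 0.936, 14.9 ± 1.23 and 6.52 ± 0.221 in the same order (SD, n = 3 each). No other member of the 17 tested lineage factors was opposite, which made a share of 11.8% against 4.86% of all genes.

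The mesenchymal list, 39 tested, did not move as a block, with a median difference of 0.07, which took the other sign under 4 alternatives (-0.19 to -0.022). S100A4, PLAU, TPM2 and LOX rose in BxPC-3-GR but fell in CFPAC-1-GR, and 6 members, COL5A1, INHBA, CD44, THBS1 and FSTL1 among them, fell in BxPC-3-GR but rose in CFPAC-1-GR. LOX had higher deposited FPKM in both resistant lines, and its fall was relative to genes of like GC content. The list was opposite in shares of 10.3% in the first and 15.4% in the second direction, against 4.86% and 5.21% of all genes. The urokinase PLAU had 36.3, 36.2 and 31.4 FPKM in BxPC-3, 54.1, 52.8 and 53.4 in BxPC-3-GR, against 617, 633 and 594 in CFPAC-1 and 154, 229 and 224 in CFPAC-1-GR. FSTL1, a secreted binder of BMP ligands, had means of 10.6 and 1.49 FPKM in the BxPC-3 lines and 21.4 and 48.4 in the CFPAC-1 lines. Of 28 TGF-beta pathway genes 4, among them the receptor TGFBR2, the ligand chain INHBA and the corepressor SKI, fell in BxPC-3-GR but rose in CFPAC-1-GR, and ID1 and LTBP3 did the reverse. SKI had lower mean FPKM in both resistant lines. The pathway was opposite in shares of 7.14% in the first and 14.3% in the second direction, against 4.86% and 5.21% of all genes. TGFBR2 had 29.9, 30.9 and 30.7 FPKM in BxPC-3, 21.1, 21.1 and 20.3 in BxPC-3-GR, against 12.7, 13.2 and 12.7 in CFPAC-1 and 28.1, 29.3 and 30.7 in CFPAC-1-GR, and ID1, a target of BMP signaling, had 49.3 ± 3.93, 61.5 ± 3.48, 93.9 ± 2.45 and 23.05 ± 2.97.

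Among 28 tested laminins, collagens and integrins, 3 genes, ITGB5 and ITGA1 among them, rose in BxPC-3-GR but fell in CFPAC-1-GR. The basement membrane collagen COL4A6 did the reverse. Shares of 10.7% and 3.57% were thus opposite, against 4.86% and 5.21% of all genes. ITGA1 had higher mean FPKM and COL4A6 lower mean FPKM in both resistant lines, so that their responses in CFPAC-1-GR (-0.90 and 0.26) were relative to genes of like GC content. ITGB5, an integrin beta chain that binds vitronectin, had 9.86, 9.29 and 9.12 FPKM in BxPC-3 and 17.4, 17.6 and 17.1 in BxPC-3-GR, against 13.2, 12.3 and 12.8 in CFPAC-1 and 6.59, 7.34 and 7.21 in CFPAC-1-GR. The matrix metalloproteinases MMP7 and MMP10 were the opposite members of 16 tested (12.5%, against 4.86% of all genes), but neither in FPKM. MMP7 rose from 1.96 ± 0.390 to 16.2 ± 1.90 FPKM in BxPC-3-GR and also had more FPKM in CFPAC-1-GR (282 ± 16.1) than in CFPAC-1 (174 ± 8.69), where its response of -0.28 was relative to genes of like GC content. MMP10 stayed at or below 0.345 FPKM in the CFPAC-1 lines.

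Immediate-early and MAPK feedback genes, induced within minutes of growth factor signaling, held 7 opposite genes of 32 tested in the first direction, JUNB, JUND, IER5, DUSP5, AREG, ETV5 and PHLDA1, and EGR1 in the second. All but PHLDA1 were opposite in FPKM. The 2 directions held 21.9% and 3.1% of the list, against 4.86% and 5.21% of all genes. DUSP5, a nuclear phosphatase of ERK, had 16.4, 16.3 and 12.97 FPKM in BxPC-3, 23.1, 24.0 and 24.7 in BxPC-3-GR, against 24.6, 24.4 and 26.2 in CFPAC-1 and 4.76, 6.57 and 6.34 in CFPAC-1-GR. The EGF receptor ligand AREG had 29.1 ± 1.67 and 51.1 ± 2.37 FPKM in the BxPC-3 lines and 54.1 ± 0.845 and 39.9 ± 8.50 in the CFPAC-1 lines (SD, n = 3 each). EGR1, an immediate-early factor itself, had 11.2, 13.6 and 11.05 FPKM in BxPC-3, 4.94, 5.16 and 5.25 in BxPC-3-GR, against 21.8, 25.9 and 25.2 in CFPAC-1 and 28.96, 38.6 and 45.6 in CFPAC-1-GR. With the GC adjustment made in 3 bands of mean level, 4 and 2 members were opposite in the respective directions.

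Genes of glycolysis and the hypoxia response had a median difference of 0.52 over 41 tested members. In the BxPC-3 lines 11 were called higher and 2 lower, where 9.45% and 9.56% of all genes were. CA9, ENO2, SLC2A1, SLC16A3, PGK1 and LOX rose in BxPC-3-GR but fell in CFPAC-1-GR, and LDHB did the reverse. They made up 14.6% and 2.44% of the list, against 4.86% and 5.21% of all genes. LOX and PGK1 were not opposite in FPKM, and the mean of LOX was 0.169 FPKM in CFPAC-1 and 0.731 in CFPAC-1-GR. CA9, the carbonic anhydrase at the cell surface that HIF1 induces, had 0.322, 0.0760 and 0.240 FPKM in BxPC-3, 20.2, 21.7 and 24.6 in BxPC-3-GR, against 4.24, 4.58 and 3.95 in CFPAC-1 and 0.769, 0.893 and 0.768 in CFPAC-1-GR (difference 5.01, standard error 0.129, adjusted p = 1.4e-09). The glucose transporter SLC2A1 had means of 25.7 and 56.1 FPKM in the BxPC-3 lines and 104 and 61.0 in the CFPAC-1 lines, and the lactate exporter SLC16A3 had 9.32, 14.4, 46.8 and 14.3. LDHB, the lactate dehydrogenase subunit that favors pyruvate, had 126 ± 6.78 and 79.9 ± 4.11 FPKM against 31.7 ± 1.87 and 67.9 ± 4.61.

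Of the lipid genes, 11.5% of the cholesterol list and 9.52% of the fatty acid list were opposite in the first direction, against 4.86% of all genes. Of 26 cholesterol genes 3, FDFT1 and EBP among them, and ACSS2 and AGPAT2 of 21 fatty acid genes rose in BxPC-3-GR but fell in CFPAC-1-GR, GPAM did the reverse, and all were opposite in FPKM. FDFT1, squalene synthase, had 4.25, 4.47 and 4.43 FPKM in BxPC-3 and 7.23, 7.68 and 8.37 in BxPC-3-GR, against 9.66, 8.39 and 8.69 in CFPAC-1 and 6.20, 6.81 and 5.77 in CFPAC-1-GR. ACSS2, which makes acetyl-CoA from acetate, had 3.21 ± 0.188 and 4.83 ± 0.109 FPKM in the BxPC-3 lines and 12.6 ± 0.140 and 5.28 ± 0.273 in the CFPAC-1 lines.

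Stress programs were divided within themselves. Of 36 tested genes of the integrated stress response and amino acid supply, 6 rose in BxPC-3-GR but fell in CFPAC-1-GR. In the reverse sense 3 moved, so that 16.7% and 8.33% were opposite, against 4.86% and 5.21% of all genes. The serine synthesis enzyme PHGDH had 1.39, 1.56 and 1.26 FPKM in BxPC-3, 4.79, 5.22 and 5.45 in BxPC-3-GR, against 6.05, 4.79 and 5.21 in CFPAC-1 and 2.19, 2.41 and 1.89 in CFPAC-1-GR, and the pseudokinase TRIB3 had 2.01 ± 0.510, 5.81 ± 0.318, 29.1 ± 1.71 and 8.46 ± 0.0674. SESN2, a target of ATF4 and p53, had responses of 1.54 and -0.24, the proline enzyme PYCR1 0.40 and -0.65, and the glycine transporter SLC6A9 1.66 and -0.29. The 3 of the other direction were CEBPG and the aminoacyl-tRNA synthetases EPRS and NARS, which load tRNA for translation. ASNS, asparagine synthetase, had overlapping libraries in the CFPAC-1 lines. The unfolded protein response held DERL1 and XBP1 of 32 tested and the p53 targets TP53INP1 and SESN2 of 28, all of the first direction. These shares, 6.25% and 7.14%, lay near the 4.86% of all genes, and of these genes SESN2 alone was opposite in FPKM.

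Of 31 NRF2 target and antioxidant genes, EPHX1, FTH1 and TKT rose in BxPC-3-GR but fell in CFPAC-1-GR and the carbonyl reductase CBR3 did the reverse. CBR3 had lower deposited FPKM in both resistant lines (3.98 ± 0.772 and 3.07 ± 0.267 in the CFPAC-1 lines). The list was opposite in shares of 9.68% and 3.23%, against 4.86% and 5.21% of all genes. FTH1, the ferritin heavy chain, had 70.1, 81.2 and 64.0 FPKM in BxPC-3, 179, 170.0 and 186 in BxPC-3-GR, against 218, 188 and 196 in CFPAC-1 and 154, 179 and 153 in CFPAC-1-GR, and it has many processed pseudogenes that make its level uncertain. The median of this list was 0.34 and turned to -0.16 without the GC adjustment. Of 23 heat shock genes the chaperones HSP90AA1, HSPA4 and HSPB8 fell in BxPC-3-GR but rose in CFPAC-1-GR, and FKBP4, a cochaperone of HSP90, did the reverse. Heat shock shares were 4.35% in the first and 13.04% in the second direction, against 4.86% and 5.21% of all genes. HSP90AA1 had 307, 310.5 and 273 FPKM in BxPC-3, 218, 224 and 205 in BxPC-3-GR, against 36.3, 42.8 and 38.1 in CFPAC-1 and 279, 253 and 255 in CFPAC-1-GR (difference -2.63). No metallothionein was opposite, and the zinc exporter SLC30A1 on that list had responses of -0.17 and 1.04. Of 31 proteasome subunits PSMB2 rose in BxPC-3-GR but fell in CFPAC-1-GR and PSMC1, PSMD13 and PSMA7 did the reverse, and of 29 lysosome genes NPC2, CTSC and GAA rose and fell and CTSL fell and rose. PSMA7 and CTSC overlapped as deposited in the CFPAC-1 lines. Proteasome shares were 3.23% and 9.68% and lysosome shares 10.3% and 3.45%, against 4.86% and 5.21% of all genes. NPC2, which carries cholesterol out of lysosomes, had 25.9 ± 1.56 and 39.8 ± 1.11 FPKM in the BxPC-3 lines and 16.3 ± 0.214 and 8.87 ± 1.26 in the CFPAC-1 lines.

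Most opposite cell cycle genes fell in BxPC-3-GR but rose in CFPAC-1-GR. Of 52 mitosis genes 7, ANLN, SMC2, SMC4, KIF11, NCAPG, HMMR and TTK, and 5 of 48 replication genes, CCNE1, ORC6, RFC3, POLA1 and UHRF1, moved this way, and UBE2C alone moved the other way. UHRF1 overlapped as deposited in the CFPAC-1 lines. Genes that fell in BxPC-3-GR but rose in CFPAC-1-GR were 13.5% of the mitosis and 10.4% of the replication list, against 5.21% of all genes. ANLN, the cytokinetic scaffold anillin, had 47.8, 48.4 and 50.3 FPKM in BxPC-3, 31.2, 31.6 and 29.04 in BxPC-3-GR, against 7.97, 7.16 and 7.56 in CFPAC-1 and 39.3, 30.0 and 34.8 in CFPAC-1-GR. CCNE1, cyclin E1, had 7.05, 6.59 and 6.56, then 2.1104, 1.85 and 1.80 in the BxPC-3 lines, and 3.71, 4.15 and 3.66, then 5.38, 5.34 and 4.86 in the CFPAC-1 lines. The condensin subunit SMC2 had 14.9 ± 1.93, 9.92 ± 0.863, 0.880 ± 0.111 and 8.37 ± 1.26 FPKM in the 4 groups. The mitosis list is low in GC content (median 43.2% against 48.4% for all genes), and its median difference moved from -0.27 to -0.95 without the GC adjustment. UBE2C, which loads ubiquitin for the anaphase-promoting complex, had 77.0 ± 8.25 and 105 ± 4.84 FPKM in the BxPC-3 lines and 87.7 ± 8.91 and 44.3 ± 7.17 in the CFPAC-1 lines. Clustered histone genes had median responses of -1.48 in the BxPC-3 and -0.46 in the CFPAC-1 lines. HIST1H3H alone was opposite of 19 tested, 5.26% against 5.21% of all genes. Histone transcripts mostly lack poly(A) tails and have near-identical copies, so these values are uncertain.

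Nuclear genes of oxidative phosphorylation and the mitochondrial genome moved apart. Of 70 tested nuclear genes, 22 were called higher in the BxPC-3 lines and none lower, against 9.45% and 9.56% of all genes. Their median responses were -0.10 in the BxPC-3 and -0.80 in the CFPAC-1 lines. NDUFB9 and COX7C were opposite, 2.86% against 4.86% of all genes. Of the 13 mitochondrially encoded genes, 9 were called lower and 1 higher, against 9.56% and 9.45% of all genes. The median responses were 0.013 in the BxPC-3 and 1.09 in the CFPAC-1 lines. MT-ND5, a subunit of complex I, had 345, 847 and 927 FPKM in CFPAC-1 and 3172, 3008 and 3272 in CFPAC-1-GR, with replicate 1 of CFPAC-1 the lowest, and it lay between 4363 and 5191 in the BxPC-3 lines. No mitochondrially encoded gene was opposite.

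Genes that handle GEM were opposite in shares of 4.55% in the first and 9.09% in the second direction, against 4.86% and 5.21% of all genes. Of 22 tested genes of GEM transport and metabolism, the nucleoside transporter SLC29A2 rose in BxPC-3-GR but fell in CFPAC-1-GR, and the cytidine deaminase CDA and the dNTP hydrolase SAMHD1 did the reverse. SAMHD1, which also hydrolyzes or binds nucleotide analogs, had 10.1, 10.1 and 10.6 FPKM in BxPC-3, 7.32, 6.10 and 5.99 in BxPC-3-GR, against 8.13, 7.51 and 8.21 in CFPAC-1 and 17.8, 17.9 and 19.2 in CFPAC-1-GR. SLC29A2 had 4.28, 5.52 and 4.56, then 8.80, 7.97 and 7.21 in the BxPC-3 lines, and 15.3, 17.3 and 15.996, then 5.26, 5.48 and 6.05 in the CFPAC-1 lines. CDA fell from 13.3 ± 1.01 to 8.64 ± 0.614 FPKM in BxPC-3-GR, but its CFPAC-1 and CFPAC-1-GR libraries overlapped. None of the 9 tested ABC efflux pumps had a called difference. Of 15 BCL2 family genes, the death-promoting BIK was opposite, 6.67% against 4.86% of all genes. BIK had 15.5, 15.99 and 13.5 FPKM in BxPC-3 and 23.8, 25.9 and 25.7 in BxPC-3-GR. It had 118, 97.0 and 99.3 in CFPAC-1 and 26.2, 27.4 and 22.6 in CFPAC-1-GR.

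Of 28 genes of the Notch and Wnt pathways, the Wnt coreceptor LRP5 and the ligand WNT7B rose in BxPC-3-GR but fell in CFPAC-1-GR. They were 7.14% of the list, against 4.86% of all genes. LRP5 had 28.96, 29.4 and 30.2 FPKM in BxPC-3, 81.9, 81.5 and 84.5 in BxPC-3-GR, against 122, 136 and 136 in CFPAC-1 and 42.1, 47.8 and 52.2 in CFPAC-1-GR, and WNT7B had 12.8 ± 0.205, 25.3 ± 0.353, 98.2 ± 5.74 and 35.2 ± 4.24. Among 16 solute and ion transporters of duct cells, ANO1, a calcium-activated chloride channel, had 67.3, 66.9 and 64.1 FPKM in BxPC-3, 11.1, 11.4 and 9.34 in BxPC-3-GR, against 5.02, 5.48 and 5.12 in CFPAC-1 and 9.34, 9.03 and 8.84 in CFPAC-1-GR. Its difference was -3.47 (standard error 0.0988), and the zinc importer SLC39A4 moved the other way with responses of 0.64 and -0.95. Each made up 6.25% of the list, against 5.21% and 4.86% of all genes.

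The largest differences outside the opposite sets belonged to genes that, after the adjustment, moved mainly in 1 line. TM4SF4, a tetraspanin-like protein, was listed at 0 in all 6 BxPC-3 and BxPC-3-GR libraries and fell from 28.6, 26.9 and 25.5 to 1.52, 1.32 and 1.04 FPKM in the CFPAC-1 lines. LY6D and MYH14 rose in BxPC-3-GR, by 4.06 and 3.62, with responses of -0.04 and -0.05 in CFPAC-1-GR. As deposited, both were lower in every CFPAC-1-GR than in every CFPAC-1 library. Mean FPKM in CFPAC-1 and CFPAC-1-GR was 1.41 and 0.297 for LY6D and 12.7 and 6.15 for MYH14. Their small responses there were thus relative to genes of like GC content. PI3, the elastase inhibitor elafin, fell from 196, 200.2 and 191 to 11.9, 12.7 and 11.7 FPKM in BxPC-3-GR. INHBB, the inhibin beta B chain, rose from 1.69, 1.76 and 2.04 to 17.2, 22.8 and 21.6 FPKM in CFPAC-1-GR. INHBB was listed at 0 in BxPC-3 and had a mean of 0.0801 FPKM in BxPC-3-GR, so a fall there could not be seen. INHBA of the same family was opposite and also rose in CFPAC-1-GR. SERPINB2, an inhibitor of urokinase, had a response of -3.93 in BxPC-3-GR and stayed at or below 0.154 FPKM in the CFPAC-1 lines. Its response in CFPAC-1-GR was -0.89 after the adjustment and 0.11 before it, so this fall came with the adjustment.

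Opposite genes were unevenly spread over chromosomes. On chromosome 8, 52 of 417 tested genes (12.5%) rose in BxPC-3-GR but fell in CFPAC-1-GR against 4.86% of all, and 2.16% did the reverse. The median response of all tested genes of this chromosome was 0.40 in the BxPC-3 and -0.045 in the CFPAC-1 lines. Between 120 and 130 Mb the share was 29.4% of 34 genes, with NDUFB9, DERL1 and MRPL13 among them, and between 140 and 150 Mb 20.8% of 72 genes, among them SLC39A4, SCRIB and LY6K. DERL1 and MRPL13 had higher deposited FPKM in both resistant lines. In the first stretch 10 genes were called, but opposite FPKM held for only 3 of its 34 tested genes, called or not. In the second 15 genes were called, and opposite FPKM held for 48 of 72, against 11.6% of all genes. The median unadjusted response in CFPAC-1-GR was 0.41 in the first and -0.85 in the second, and the adjusted medians were -0.20 and -0.022. Calls in the first thus rest largely on the adjustment. Opposite FPKM in the second includes a fall in CFPAC-1-GR that the adjustment largely removed. On chromosome 16, 63 of 553 genes (11.4%) fell in BxPC-3-GR but rose in CFPAC-1-GR against 5.21% of all, where the median responses were -0.40 and 0.021. JPT2, ORC6 and MARVELD3 lie there. Between 30 and 40 Mb of chromosome 19, which holds ZNF146, CEBPG and PAF1, 15.5% of 71 genes moved in this sense and none in the other, with median responses of -0.67 in the BxPC-3 and -0.25 in the CFPAC-1 lines. PAF1 had lower deposited FPKM in both resistant lines.

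Chromosome 11 outside the excluded segment held further stretches of the second direction. Between 10 and 20 Mb, where CTR9 and RASSF10 lie, 17.6% of 51 genes fell in BxPC-3-GR but rose in CFPAC-1-GR, and between 30 and 40 Mb, where FJX1 and CD44 lie, 18.5% of 27 did. The median response of all genes in these stretches was 0.54 in CFPAC-1-GR in each, against -0.11 and -0.15 in BxPC-3-GR. DNA copy number was not measured, and its part in these medians was not tested.

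**Figure D5:**
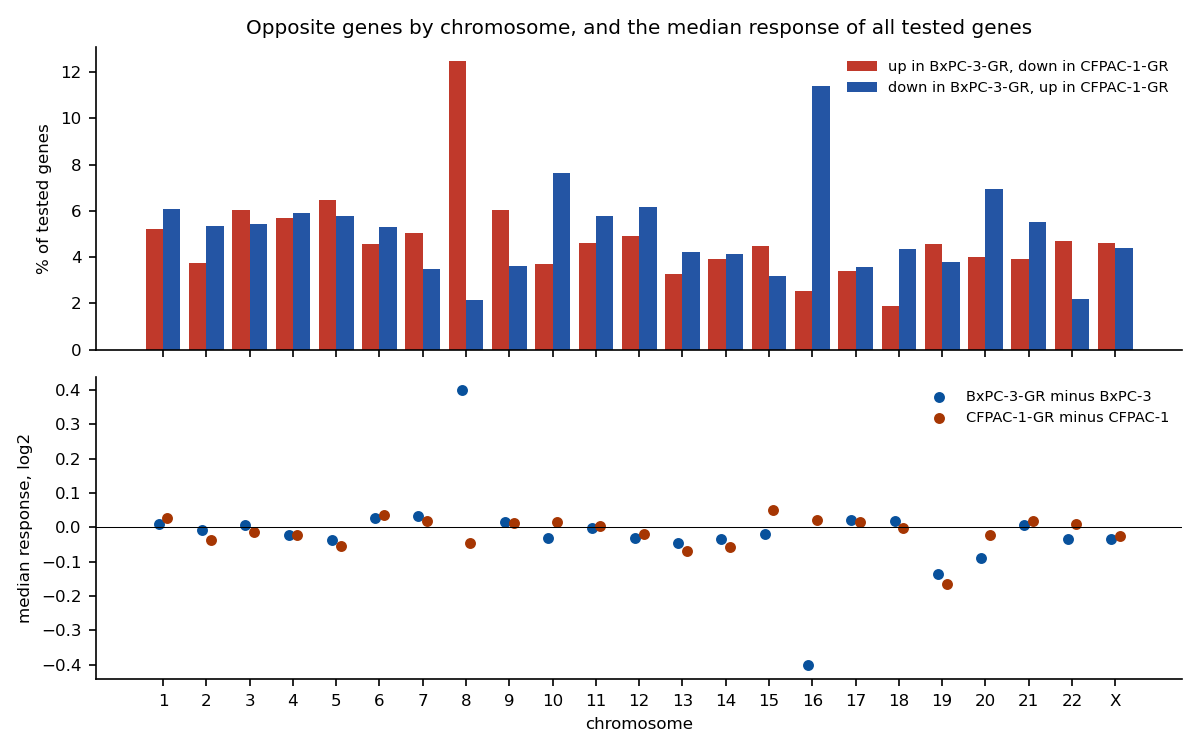
Share of tested genes of each chromosome called opposite (top, red for genes up in BxPC-3-GR and down in CFPAC-1-GR, blue for the reverse) and the median log2 response of all tested genes of the chromosome in each line (bottom). Chromosome 8 stands out at 12.5% red with a median of 0.40 in BxPC-3-GR, and chromosome 16 at 11.4% blue with a median of -0.40.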

How the data were processed

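Total RNA of 12 libraries, 3 in each of 4 groups, was sequenced and deposited by the authors as FPKM per gene for 58302 genes. The submitters' processing notes name Trimmomatic 0.27, FastQC 0.10.1 and TopHat2 2.0.8 and the builds hg19 and GRCh38. Gene ends lay within 1 base of GENCODE 29 (GRCh38) for 97.6% of matched genes, so GRCh38 positions are given. Whether counting used strand is not given in the sources used here. Depth was estimated from the steps between low FPKM values, and since FPKM keep no exact counts, no counting interval is given.

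Groups were taken from the labels. Genes averaging 1 FPKM or more were kept, values were taken as log2(FPKM + 1), and a natural spline on GC content with 5 degrees of freedom was subtracted from each library. Each fold change is on this scale, which by itself understates the change of low genes. The GC curve was subtracted whatever the level of a gene, so the adjusted response of a low gene can exceed or oppose its change in FPKM. SPRR1A, near 0 FPKM in the CFPAC-1 lines, had an unadjusted response of 0.075 there and an adjusted one of 0.91. A single limma model (limma 3.58.1, R 4.3.3) over the 4 groups gave the response of each line and their difference, with Benjamini-Hochberg adjustment over all 12184 genes. A difference was called at an adjusted p below 0.05 and an absolute value above 1, and a gene was opposite when both responses also had an adjusted p below 0.05 with opposite signs. The fit was tested on simulated data. Tables were made with Python 3.11.15, pandas 2.3.3, numpy 2.4.6 and matplotlib 3.10.9.

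Named genes were the 14 protein-coding genes per direction with the largest smaller response whose resistant and parental libraries did not overlap in FPKM in either line, up to 4 opposite members of each of 38 gene lists (2 called members where none was opposite), and the 3 largest called differences per sign that were not opposite. Other opposite list members are named to complete a count of the list and were chosen after their values were seen, as were the genes named beside chromosome stretches. The rule, the members and the lists were chosen with earlier results of these data known. Alternatives covered the GC adjustment, scaling, pseudocount, filter, replicate block, variance model, threshold and each library left out. Some list members are counted but not reported here by name.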

Additional observations from a re-analysis of the deposited data

Results flagged for a closer look

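The difference between the responses was itself tested, as an interaction term in the limma fit, and it passed the threshold for 2316 genes, of which 591 rose in BxPC-3-GR but fell in CFPAC-1-GR and 634 did the reverse outside the chromosome 11 segment. For the leading genes the differences were 3.88 for CDH6, 3.50 for F5, 6.20 for WFDC2, -8.36 for S100A9, -3.35 for COL5A1 and -3.46 for IFIT3 on the log2(FPKM + 1) scale. In each of the 6 genes all 3 resistant libraries lay on the stated side of all 3 parental libraries in both lines. The choice of leading genes required this separation, so it is no further evidence. CDH6 averaged below 1 FPKM in the CFPAC-1 lines, where most of its response came with the adjustment. Groups of 3 libraries are too small for a test of single outlying libraries.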

How the results depend on the processing

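Without the GC adjustment 4631 genes were called (37.9% of them higher in the BxPC-3 lines, against 49.7% of the 2316 with it), with 878 and 1354 opposite genes, of which 358 and 485 were shared with the 591 and 634. In that setting 29 opposite genes changed sign, ERAP1 among the named ones (-0.0945), and 19 of the 133 named genes were no longer called. SOD2, OCLN and ITGA1 lost the adjusted p below 0.05, and the other 15 kept it with an absolute difference of at most 1 (SERPINB9, DERL1, CCL28, LOX, CTSC, CDA, PSMA7, UHRF1, XBP1, COL4A6, CBR3, ASNS, COX7C, COL1A1 and MARVELD3). With library means kept in the adjustment 389 genes were opposite in the first direction and 948 in the second, and 31.6% of calls were higher. Median-of-ratios scaling without the adjustment gave 4589 calls, 53.2% higher, and 1165 and 990 opposite genes, and 18 named genes were not called. The median difference over all genes was -0.214, -0.196 and 0.0173 in these 3 settings. A minimum mean of 5 FPKM gave 1279 calls and 350 and 367 opposite genes, no filter 3329 (42% higher) and 711 and 913, and a pseudocount of 0.1 gave 3448 and 770 and 737. A test against an absolute difference of 1 left 869 calls, 299 and 311 opposite genes, and 37 named genes short of the threshold. A GC adjustment within 3 bands of mean level, chosen after the data were seen, gave 2145 calls and 553 and 580 opposite genes. Leaving out each library in turn gave 2222 to 2416 calls, 554 to 621 genes opposite in the first direction and 596 to 673 in the second.

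After the GC adjustment, same-numbered libraries did not deviate together (correlations of -0.13 to 0.09). The adjustment also removes a shift common to all genes of a library, so these values cannot decide whether the numbers pair the libraries. With the replicate block the fit called 2314 genes, with 581 and 638 opposite, and without the GC adjustment 4632, with 882 and 1334, and ERAP1 again at -0.0945.

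Of 133 named genes 96 kept the direction and an adjusted p below 0.05 under every alternative in which they were tested, and 89 also kept an absolute difference above 1. Leaving out BxPC-3-GR replicate 3 brought 4 of the 133 to an absolute difference of at most 1, CFPAC-1 replicate 3, CFPAC-1-GR replicate 1 and CFPAC-1-GR replicate 3 brought 2 each, BxPC-3 replicate 3 and CFPAC-1 replicate 2 brought 1 each, and the other libraries none. The median of 16 of the 38 lists took the other sign under at least 1 alternative. The cause of these shifts was not tested. With 3 libraries per group an exact permutation test of a single gene cannot go below 0.10, so calls rest on the spread pooled over genes by limma.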
